A study of Arabidopsis thaliana with 9 samples.

Results

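Signals of 16 protein-coding genes of the Arabidopsis thaliana mitochondrial genome were examined in root tips of 3 genotypes. Each member has a probe set annotated to that gene alone and assigned to the mitochondrial genome by the gene's name, among 13356 genes with a single-gene probe set on the array. RefSeq places 32 protein-coding gene names on this genome. The 16 names without a member, among them all ATP synthase subunits, cob, cox3, nad3 and the ribosomal protein genes, were not analysed here. Apart from nad, cox, cob, ccb and orf symbols, a name also borne by a gene outside this genome was not taken. Some of the 16 names may thus have a single-gene probe set. The 16 comprise 8 complex I subunits (nad1, nad2, nad4, nad4L, nad5, nad6, nad7 and nad9), 2 complex IV subunits (cox1 and cox2), 4 cytochrome c maturation genes, the maturase gene matR and 1 gene annotated as an open reading frame, orfX. RefSeq lists orfX as mttB or tatC and the maturation genes as ccmB (ccb206 in the array annotation), ccmFC (ccb452), ccmFN1 (ccb382) and ccmFN2 (ccb203). With a single open reading frame, and that one a conserved named gene, no class of open reading frames could be set against the 10 respiratory subunits.

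RNA came from the terminal 0.5 mm of primary roots, hand-dissected 4 days after germination from untreated seedlings, and was hybridised to 1-colour Affymetrix ATH1 arrays. The wild type is labelled Col er-2. Alleles of the triple mutant are cna-2 phb-13 phv-11, in CNA, PHB and PHV, class III homeodomain-leucine zipper genes. The quadruple mutant has rev-6, an allele of the related gene REV, in addition. Its labels differ on the other alleles, with phb-13 and phv-6 in the genotype field and phb1 and phv11 in the titles. The labels do not say whether the mutants also carry er-2. Each genotype had 3 arrays called biological replicates, and quadruple homozygotes were picked by their radial cotyledons from a segregating population. The deposited values are RMA signals on the log2 scale, so a difference of 1 is a doubling. Array medians lay between 5.79 and 5.95, and PHV, 1 of the mutated genes, stood at 7.14 to 7.28 on wild-type arrays, at 4.71 to 4.77 on triple-mutant and at 5.03 to 5.22 on quadruple-mutant arrays. Of the tissue markers listed for the tip, AGL42 and BBM of the stem-cell niche, EXPA7 of root hairs and PSBY of green tissue were measured, and EXPA7 did not exceed 4.14 on any array. Mean signals in wild type, triple and quadruple mutant were 5.89, 5.26 and 6.59 for AGL42 and 7.75, 7.90 and 8.35 for BBM, and from the triple to the quadruple mutant both rose (limma, log2 differences of 1.33 and 0.45). PSBY means were 4.55, 4.07 and 4.00, and none of its differences was called. The part of such tissue differences in the mitochondrial signals was not tested.

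Plant mitochondria keep a small genome that encodes core subunits of the respiratory complexes, part of the machinery that attaches haem to cytochromes c, some ribosomal proteins and a maturase. All other respiratory subunits, the RNA polymerases and most factors that splice and edit the transcripts are encoded in the nucleus. Dividing and growing root-tip cells depend on respiration for ATP, and mutants in organelle RNA processing are known for slow root growth. The labelling kit named in the labels primes from poly(A) tails. Plant mitochondrial messages carry such tails briefly, and there they mark RNA for decay, so these signals need not follow the whole pool of a transcript. In RNA from whole tips, fewer cells rich in a transcript and less of it per cell cannot be told apart.

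None of the 16 genes differed between genotypes at an adjusted p under 0.05 (limma, Benjamini-Hochberg over all 22746 probe sets tested). In the triple mutant against wild type 0 of 16 were called, where 1.73% of all probe sets were; at an unadjusted p under 0.05 the counts were 0 of 16 and 13.5%. In the quadruple mutant against wild type 0 of 16 were called, against 0.0440% of all probe sets, and 1 of 16 had an unadjusted p under 0.05, against 9.39%. Between the mutants 0 of 16 were called, against 2.22%, and 0 of 16 had an unadjusted p under 0.05, against 10.9%. The F-test over the 3 genotypes called 0 of 16, against 2.08% of all probe sets, and 0 of 16 had an unadjusted p under 0.05, against 13.0%. The smallest adjusted p of any member was 0.423 in the pairwise comparisons and 0.486 in the F-test. A p that misses the threshold does not show equal levels, so the intervals bound what these arrays can say. With 1 probe set per gene, the 95% intervals of all 48 differences lay between -0.74 and 0.96, so none reached a 2-fold difference in signal. The largest of these differences was 0.45. Other probe sets of nad1 went further in the triple mutant against wild type. There 257322_at differed by 0.57, and the interval of 257323_at was -0.26 to 1.15. Of the 16 mean signals 9 lay under the lowest array median, 5.79. Intervals of such dim signals need not bound the change of the transcript itself, which was not tested.

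**Figure D1:**
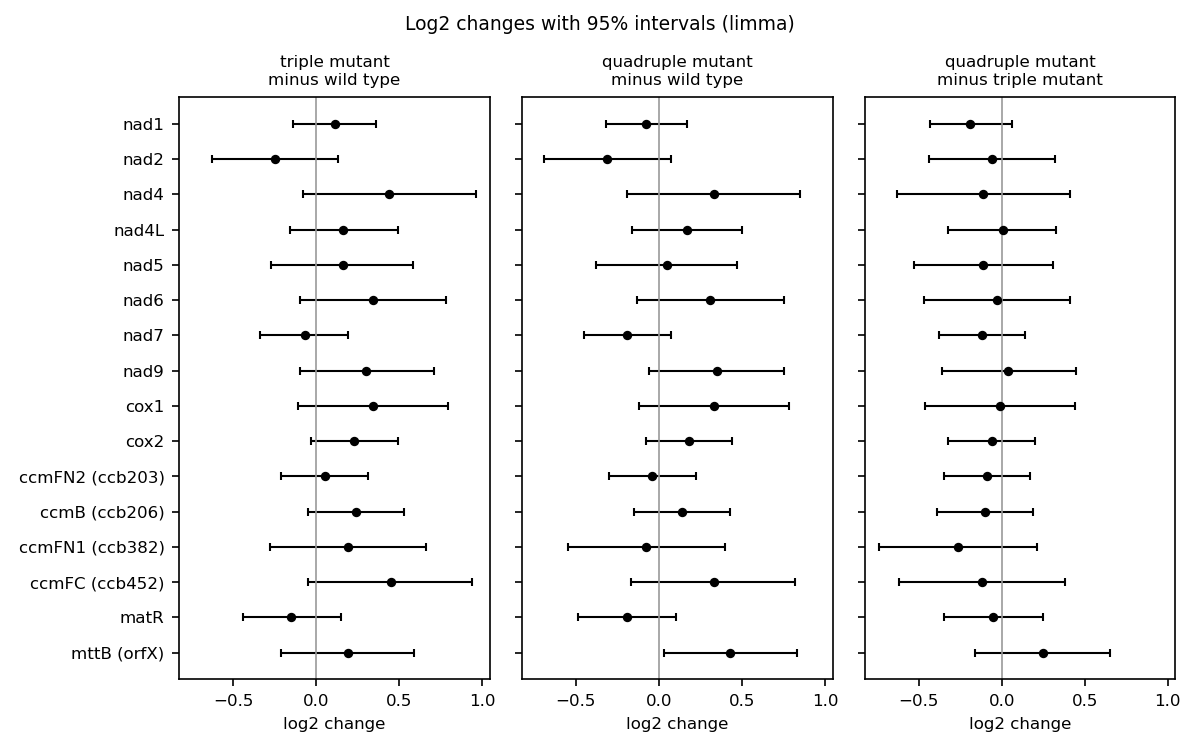
Log2 difference (x axis) of each of the 16 genes (y axis) in the 3 comparisons, with points for limma estimates and bars for 95% intervals. In this fit, which ignores replicate number, every interval but 1 includes 0, and none reaches 1 in either direction. The exception is mttB (orfX) in the quadruple mutant against wild type, 0.03 to 0.83.

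The membrane arm of complex I, which pumps protons, is built on NAD1, NAD2, NAD4, NAD4L, NAD5 and NAD6. The nad4 signal was 9.09, 8.96 and 8.24 in wild type, 9.14, 9.09 and 9.39 in the triple mutant and 8.89, 8.86 and 9.53 in the quadruple mutant. Wild-type replicate 3 was the lowest of the 9 arrays and replicate 3 of the quadruple mutant the highest, and the groups overlapped. The log2 difference of nad4 was 0.44 for the triple mutant (SE 0.23, 95% interval -0.08 to 0.96, limma adjusted p = 0.454) and 0.33 for the quadruple mutant (SE 0.23, interval -0.19 to 0.85, limma adjusted p = 0.668). Without the 3 arrays numbered 3, an alternative chosen after seeing the data, the quadruple-mutant value turned to -0.15.

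The nad6 signal was 4.95, 4.19 and 4.02 in wild type, 4.74, 4.60 and 4.83 in the triple mutant and 4.74, 4.70 and 4.64 in the quadruple mutant. Wild-type replicate 1 lay above all mutant arrays and the other wild-type arrays lay below all of them. With all arrays the log2 difference was 0.34 in the triple mutant (SE 0.20, interval -0.10 to 0.78, limma adjusted p = 0.497). Without wild-type replicate 1 it was 0.62 and passed (SE 0.10, limma adjusted p = 0.0219), the 1 member call in 9 fits that each left out 1 array. That fit called 2.84% of all probe sets in this comparison, against 1.73% with all arrays. In the other 8 fits the adjusted p of nad6 reached up to 0.805.

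The nad4L signal was 5.40, 4.93 and 4.77 in wild type and lay between 5.06 and 5.33 on the mutant arrays, again with wild-type replicate 1 above and the other wild-type arrays below the mutants. Its log2 differences from wild type were 0.16 for the triple and 0.17 for the quadruple mutant (limma adjusted p = 0.674 and 0.736). The nad5 signal ranged from 4.80 to 5.61 over the 9 arrays, with the lowest and the highest array both in a mutant, and differed by 0.16 and 0.05 (limma adjusted p = 0.767 and 0.958). In nad2 the sign was the opposite of these. Its signal was 3.65, 4.09 and 3.61 in wild type, 3.64, 3.69 and 3.28 in the triple mutant and 3.63, 3.62 and 3.18 in the quadruple mutant. The arrays numbered 3 were the lowest in each genotype, and the differences were -0.25 and -0.31 (SE 0.17 each, limma adjusted p = 0.562 and 0.611).

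The nad1 transcript is pieced together from separately transcribed parts by trans-splicing, and the array carries 7 probe sets annotated to nad1 alone. The brightest one, 257324_at, stands for the gene here. Its signal was 6.69, 6.31 and 6.49 in wild type, 6.48, 6.61 and 6.72 in the triple mutant and 6.43, 6.48 and 6.34 in the quadruple mutant. All quadruple-mutant arrays lay at or below the lowest triple-mutant array, 6.48 to the second decimal on both sides, and the log2 difference between the mutants was -0.19 (SE 0.11, interval -0.43 to 0.06, limma adjusted p = 0.645). The 7 probe sets did not move alike. In the triple mutant against wild type their differences ran from -0.01 for 257327_at to 0.57 for 257322_at. The latter read 5.08, 4.35 and 4.46 in wild type and 5.07, 5.33 and 5.22 in the triple mutant, so the groups met only through wild-type replicate 1 (SE 0.17, unadjusted p = 0.00631, limma adjusted p = 0.147). Without that array 257322_at stood at 0.80 (limma adjusted p = 0.00867) and 257323_at at 0.90 (limma adjusted p = 0.0300). The fit without it called 2.84% of all probe sets in this comparison, against 1.73% with all arrays. The sources used here do not place these probe sets on the parts of nad1.

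**Figure D2:**
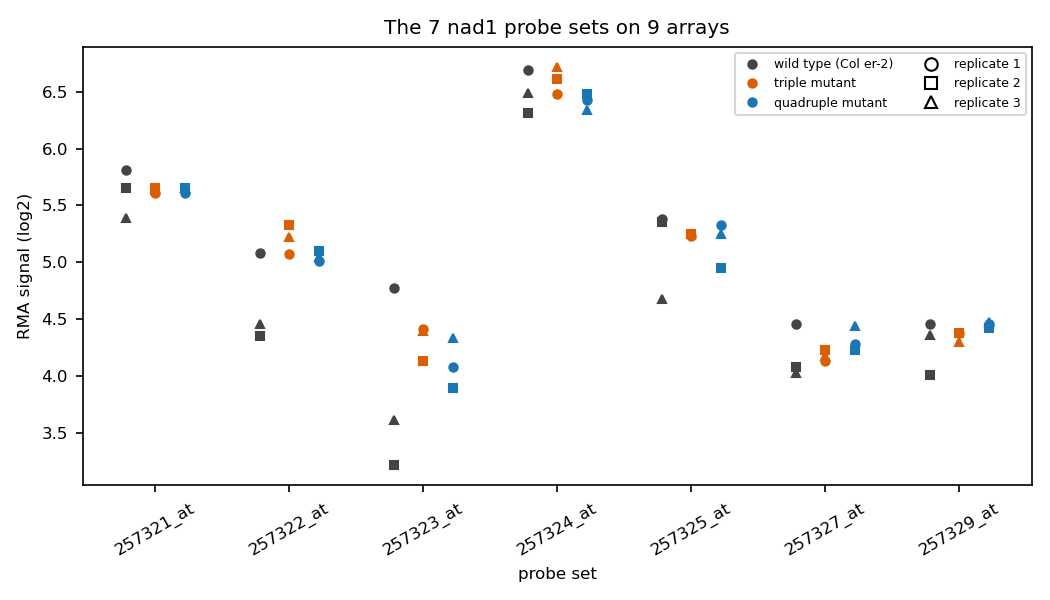
RMA signal (y axis, log2) of the 7 probe sets annotated to nad1 (x axis) on the 9 arrays, coloured by genotype and shaped by replicate. For 257322_at wild-type replicates 2 and 3, at 4.35 and 4.46, lie below all mutant arrays, while replicate 1, at 5.08, lies among them; probe brightness is not comparable between probe sets.

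NAD7 and NAD9 belong to the peripheral arm of complex I, which takes electrons from NADH. The nad9 signal was 5.69, 5.56 and 5.06 in wild type, 5.65, 5.48 and 6.09 in the triple mutant and 5.85, 5.69 and 5.81 in the quadruple mutant. Every quadruple-mutant array was above every wild-type array, by a narrow margin, and the difference was 0.35 (SE 0.18, interval -0.06 to 0.75, limma adjusted p = 0.588). In the triple mutant it was 0.30 (limma adjusted p = 0.506), and without the arrays numbered 3 it turned to -0.0587. The nad7 signal stayed between 4.33 and 4.90, with differences of -0.07 and -0.19 (limma adjusted p = 0.827 and 0.631). Its highest array was wild-type replicate 2 and its lowest was quadruple-mutant replicate 3.

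COX1 and COX2 form the catalytic core of cytochrome c oxidase, complex IV, which reduces oxygen. The cox1 signal was 6.74, 6.77 and 6.35 in wild type, 6.66, 6.87 and 7.36 in the triple mutant and 6.89, 6.70 and 7.28 in the quadruple mutant. The replicates numbered 3 were the lowest in wild type and the highest in both mutants. The log2 difference was 0.34 in the triple mutant (SE 0.20, interval -0.11 to 0.79, limma adjusted p = 0.500) and 0.33 in the quadruple mutant (SE 0.20, interval -0.12 to 0.78, limma adjusted p = 0.631). The cox2 signal was 5.93, 5.52 and 5.62 in wild type and lay between 5.80 and 6.01 on the 6 mutant arrays, so wild-type replicates 2 and 3 were below every mutant array and replicate 1 was among them. Its differences were 0.23 and 0.18 (SE 0.12 each, limma adjusted p = 0.425 and 0.653).

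Over the 10 respiratory subunits the median log2 difference was 0.20 in the triple mutant, with 8 of 10 above 0, and 0.17 in the quadruple mutant, with 7 of 10 above 0. The medians over all probe sets were -0.02 and 0.00. Between the mutants the median was -0.06, with 2 of 10 above 0. The other 6 members had medians of 0.19, 0.05 and -0.09 in the same order of comparisons. With the array medians set equal, the medians of the respiratory subunits were 0.10 and 0.08 against -0.12 and -0.08 over all probe sets, and after a further quantile normalization both were 0.11. Without the arrays numbered 3 they were 0.04 and 0.02. The comparisons share the wild-type or the triple-mutant arrays, and the members share the 9 arrays, so these medians do not count as separate evidence.

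The cytochrome c maturation genes encode parts of the system that joins haem to apocytochrome c. CcmFN1, CcmFN2 and CcmFC are pieces of 1 ancestral protein, CcmF, that is split in Arabidopsis, and CcmB is a membrane subunit of a transporter. The ccmFC signal was 6.94, 6.79 and 7.14 in wild type, 7.13, 7.27 and 7.80 in the triple mutant and 7.22, 6.89 and 7.74 in the quadruple mutant. In each genotype replicate 3 was the highest array, and the triple-mutant arrays met the wild-type ones only at 7.13 and 7.14. Its log2 difference, 0.45 in the triple mutant, was the largest among the probe sets that stand for the members (1.36-fold, SE 0.22, interval -0.05 to 0.94, limma adjusted p = 0.423). It was 0.33 in the quadruple mutant (limma adjusted p = 0.656). A fit that blocks on replicate number gave an adjusted p of 0.0666 for the triple mutant, which did not pass.

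The ccmFN1 signal was 10.46, 10.50 and 10.89 in wild type, 10.58, 10.61 and 11.23 in the triple mutant and 10.61, 10.17 and 10.84 in the quadruple mutant. As in ccmFC, replicate 3 was the highest in each genotype, while the differences between genotypes were 0.19 and -0.08 (limma adjusted p = 0.743 and 0.932). ccmFN2 ranged from 4.54 to 4.93 and differed by 0.05 and -0.04 (limma adjusted p = 0.895 and 0.934). ccmB ranged from 5.18 to 5.88 and differed by 0.24 and 0.14 (limma adjusted p = 0.462 and 0.757). On the quadruple-mutant arrays ccmB read 5.63 throughout, and 2 of these 3 values were equal to every deposited digit. Of the 16 members 7 had such equal values on at least 2 arrays, a share of 43.8% against 45.0% of all probe sets. RMA's median polish is known to give such ties, so the SD of these genes rests on fewer distinct values.

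The mttB (orfX) product resembles TatC, a membrane component of the twin-arginine protein translocase. Its signal was 6.24, 6.37 and 5.54 in wild type, 6.20, 6.18 and 6.32 in the triple mutant and 6.55, 6.48 and 6.42 in the quadruple mutant. All quadruple-mutant arrays lay above the other 6, and wild-type replicate 3 lay below all others. The difference from wild type was 0.43 (1.35-fold, SE 0.18, interval 0.03 to 0.83, unadjusted p = 0.0373, limma adjusted p = 0.520). From the triple mutant it was 0.25 (SE 0.18, limma adjusted p = 0.775). Without 1 array at a time the difference from wild type ran from 0.18 to 0.59 (limma adjusted p from 0.260 to 0.785). In the reported fit mttB was the 1 member below an unadjusted p of 0.05, in a comparison where 9.39% of all probe sets were. The maturase gene matR, which lies in an intron of nad1 and is known for its part in splicing, read 4.16, 4.60 and 4.27 in wild type and 3.99 to 4.36 on the mutant arrays. Its differences were -0.15 and -0.19 (limma adjusted p = 0.678 and 0.659).

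**Figure D3:**
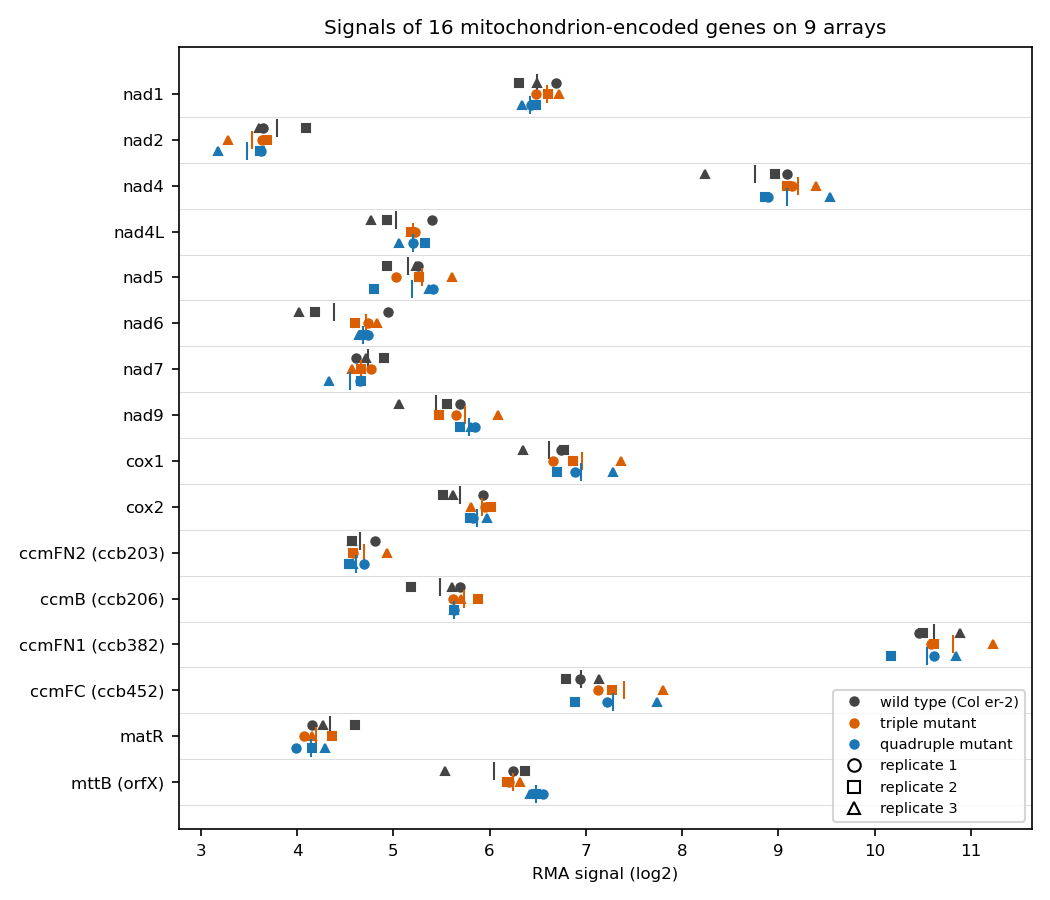
RMA signal (x axis, log2) of the 16 genes (y axis) on the 9 arrays, coloured by genotype, shaped by replicate, with a vertical tick for each genotype mean. The genotypes overlap in nearly all genes; mttB (orfX) is the gene whose 3 quadruple-mutant arrays, at 6.42 to 6.55, lie above the other 6 arrays.

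Few of the genes had arrays of a genotype pair fully apart. In the triple mutant 0 of 16 had all arrays above wild type, against 7.89% of all probe sets, and 0 of 16 had all below, against 7.06%. In the quadruple mutant 2 of 16, nad9 and mttB, had all arrays above wild type, against 7.61% of all probe sets, and 0 of 16 all below, against 5.17%. Between the mutants 2 of 16 were separated, mttB upwards and nad1 downwards, against 16.5% either way. In the RefSeq order of protein-coding genes, 7 pairs of members lie next to each other on the mitochondrial genome, and placing nad1, nad2 and nad5 is uncertain because their parts are scattered. In the triple mutant the differences of a pair had the same sign in 4 of 7 pairs, such as 0.23 for cox2 and 0.24 for ccmB, and opposite signs in 3, such as -0.25 for nad2 and 0.34 for nad6. In the quadruple mutant the sign was the same in 3 of 7 and opposite in 4. Of all 16 members 13 were above 0 in the triple mutant and 10 in the quadruple mutant. Members that are not neighbours thus often share a sign too, and the share over all pairs was not taken. The genes ccmFC, nad4 and mttB are consecutive, with differences of 0.45, 0.44 and 0.19 in the triple mutant and of 0.33, 0.33 and 0.43 in the quadruple mutant. On wild-type replicate 3 nad4 and mttB were at their lowest, whereas ccmFC was at its highest wild-type value.

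Among the 16 genes the wild-type SD was the largest of the 3 in 10, a share of 62.5% next to 59.4% of the plastid-encoded genes and 49.7% of all probe sets. The median SD was 0.24 for wild type, 0.16 for the triple mutant and 0.14 for the quadruple mutant (n = 3 arrays each), against 0.15, 0.12 and 0.10 over all probe sets. Triple-mutant replicate 3 was the highest array of its genotype in 10 of 16 genes, where it was so in 34.8% of all probe sets. Wild-type replicate 3 was the lowest of its genotype in 8 of 16 genes and the highest in 2, against 34.3% and 37.7% of all probe sets. It was the lowest in 6 and the highest in 0 of the 10 respiratory subunits, and the lowest in 2 and the highest in 2 of the other 6 members. Quadruple-mutant replicate 3 was the highest in 6 of 16 genes and the lowest in 6 others, so the arrays numbered 3 did not shift all genes one way.

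**Figure D4:**
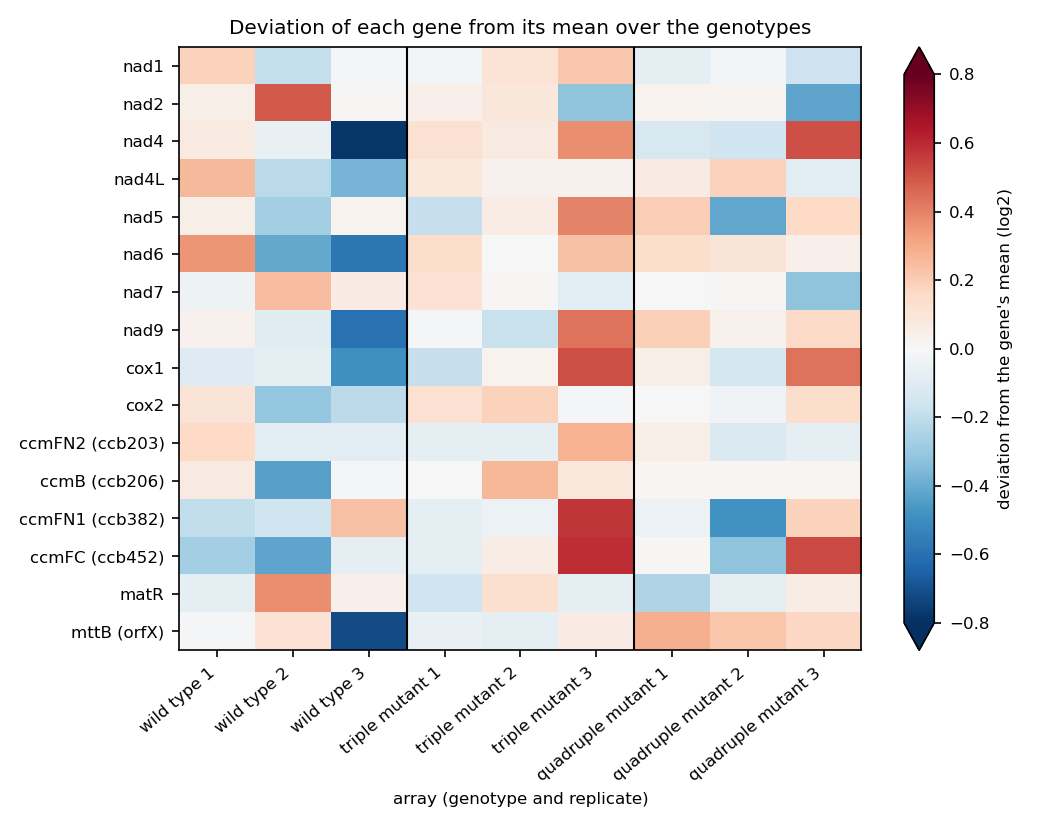
Deviation of each gene (rows) from the mean of its 3 genotype means, on the log2 scale, for each array (columns), red above and blue below. Wild-type replicate 3 is low in nad4, nad6, nad9, cox1 and mttB (orfX), and replicate 3 of both mutants is high in nad4, cox1 and ccmFC (ccb452) and low in nad2.

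The array pattern was compared with the other organelle genome and with nuclear genes of the same complexes. Median deviations from the gene means were taken on each array. For the 16 mitochondrial genes they were 0.05, -0.12 and -0.08 in wild type, -0.01, 0.04 and 0.22 in the triple mutant and 0.02, -0.03 and 0.10 in the quadruple mutant. For 69 plastid-encoded genes they were 0.16, -0.14 and -0.32 in wild type, 0.05, 0.01 and 0.06 in the triple mutant and 0.03, -0.05 and 0.22 in the quadruple mutant. Both organelle groups were thus above 0 on wild-type replicate 1, below it on the other wild-type arrays and above it on quadruple-mutant replicate 3. For 56 measured nuclear genes of complexes I to V the wild-type deviations were 0.06, 0.00 and -0.05, those of the triple mutant 0.01, 0.08 and -0.16, and those of the quadruple mutant 0.01, 0.07 and -0.05. On triple-mutant replicate 3, where the mitochondrial genes were highest, the nuclear genes were lowest, with 46 of 56 at their genotype's lowest value there, against 38.2% of all probe sets.

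These arrays also differed in other signals. PSBY, the 1 of 5 green-tissue markers with a listed probe set, deviated by 1.36 on wild-type replicate 3 and by -0.44 to -0.02 on the other 8 arrays. The means of 18 hybridisation control probe sets were 10.16 to 10.29 on the triple-mutant arrays and 9.83 to 10.07 on the other 6, the lowest on wild-type replicate 3. Their part in the mitochondrial signals was not tested.

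**Figure D5:**
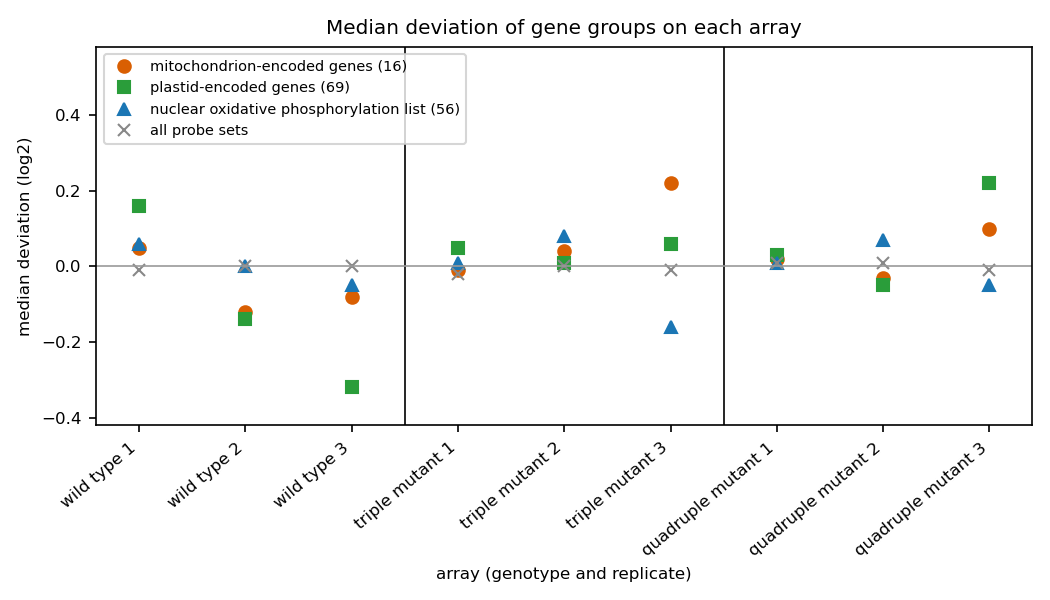
Median deviation from the gene mean (y axis, log2) on each array (x axis) for mitochondrion-encoded, plastid-encoded and nuclear oxidative phosphorylation genes and for all probe sets. On triple-mutant replicate 3 the mitochondrial median is 0.22 and the nuclear one -0.16; all probe sets stay within 0.02 of 0.

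Nuclear genes for respiration, cytochrome c maturation, mitochondrial stress and organelle RNA were counted on the same fit. Of 157 listed genes 71 had a single-gene probe set. Oxidative phosphorylation lists held 99 of the 157 and 56 of the 71. In the triple mutant against wild type 0 of 71 were called, against 1.73% of all probe sets, and 5 of 71 had an unadjusted p under 0.05, against 13.5%. In the quadruple mutant the counts were 0, against 0.0440%, and 2, against 9.39%. Between the mutants 1 of 71 was called, against 2.22%, and 5 had an unadjusted p under 0.05, against 10.9%. The called gene was SDH1-2, which encodes a second form of the flavoprotein subunit of succinate dehydrogenase, complex II, which has no member here. Mean SDH1-2 signals were 4.78 ± 0.25 for wild type, 4.40 ± 0.13 for the triple mutant and 5.03 ± 0.08 for the quadruple mutant (SD, n = 3 arrays each). These means all lay under the lowest array median, 5.79, so the gene is dim. SDH1-2 rose by 0.63 from the triple to the quadruple mutant (SE 0.13, limma adjusted p = 0.0320), and the call was lost on leaving out any of 5 of the 9 arrays (each quadruple-mutant array and triple-mutant replicates 1 and 2), with an adjusted p of up to 0.141. The medians of the 56 oxidative phosphorylation genes were -0.02, -0.01 and 0.00 in the 3 comparisons, with changes from -0.38 to 0.63.

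When replicate number was added as a block, 2 of the 71 nuclear genes were called in the triple mutant, against 5.06% of all probe sets in that fit, and 3 between the mutants, against 4.90%. Both counts are thus no higher in share than over all probe sets. NDB2, an alternative NADH dehydrogenase of the inner membrane's outer face, stood 0.56 higher in the triple mutant than in wild type (limma adjusted p = 0.00607 with the block) and differed by -0.55 between the mutants (limma adjusted p = 0.00605 with the block). The reported fit, which has no block, called NDB2 in neither comparison. AT5G09570, from the list of mitochondrial stress genes, stood at -1.84 and 1.29 in the same comparisons (limma adjusted p = 0.00208 and 0.0106 with the block); without the block its adjusted p was 0.340 and 0.663. Its wild-type SD was 1.52. SDH1-2 remained called between the mutants (limma adjusted p = 0.0168 with the block). Of the 32 listed factors for splicing, editing and processing of mitochondrial RNA 5 were measured and 0 were called. The largest of their changes was 0.36, for AT5G46920 between the mutants (limma adjusted p = 0.187). The mitochondrial polynucleotide phosphorylase gene AT5G14580, which trims and degrades mitochondrial RNA, stood at -0.34 in the triple mutant (limma adjusted p = 0.298). In the alternative oxidase and dehydrogenase list 5 of 12 genes were measured, and NDB4 had the widest difference, -0.87 in the triple mutant (limma adjusted p = 0.450), with a wild-type SD of 0.90. GLDH, which completes vitamin C synthesis and takes part in complex I assembly, stood at -0.29 there (limma adjusted p = 0.155).

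Plastid-encoded genes, the nearest comparison, gave 0 calls of 69 in all 3 comparisons, with 4, 6 and 0 at an unadjusted p under 0.05, against 13.5%, 9.39% and 10.9% of all probe sets. Their median differences were 0.16 and 0.17 from wild type, next to 0.19 and 0.15 for the 16 mitochondrial genes, and 0.02 between the mutants, next to -0.07. The difference between the organelles was not tested. A further 12 probe sets match several genes of which at least 1 is mitochondrial, 11 of them with a locus on chromosome 2, where a large copy of the mitochondrial genome is inserted. None is named for that reason. Their median differences were 0.18, 0.16 and -0.04, and 0 of 12 were called in each comparison.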

How the data were processed

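The deposited table holds log2 values, with a value for each probe set on each array. These were made, per the submitters' processing notes, with Affymetrix Expression Console, RMA and limma, with versions not given in the sources used here. Scanner files and detection calls were not used here. RMA sets arrays to a common distribution, so a difference is relative to the other transcripts.

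Of 22810 rows, 64 controls were left out. Platform symbols were matched to RefSeq names of TAIR10.1, for all 16 members. Where a gene had more than 1 probe set, the brightest stood for it. 5 of the 16 probe sets carry the s_at suffix, which Affymetrix gives to sets that can match more than 1 transcript. Members and lists were chosen with earlier results of these data known. The text names every respiratory subunit, any other member that was called or among the 3 most extreme in change, brightness or F-test p, and of each nuclear list the called genes or else the 1 with the largest change; the remaining members, the green-tissue marker and genes called with the block were added after values were seen.

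A mean per genotype was fitted over all 9 arrays with limma 3.58.1 in R 4.3.3 (6 residual degrees of freedom), and adjusted p-values were taken over 22746 probe sets. The fit was also run on simulated data with arrays drawn independently, which cannot show how it fares when same-numbered arrays go together. Replicate numbers come from the titles. Deviations of same-numbered arrays correlated, across probe sets, at 0.273, 0.330 and 0.408 for triple mutant and wild type. They correlated at 0.217, 0.340 and 0.515 for both mutants and at 0.0427, 0.342 and 0.360 for quadruple mutant and wild type. All were positive, so same-numbered arrays may be paired in every comparison. The reported p-values and intervals come from a fit that ignores this. With replicate number as a block, calls over all probe sets rose from 1.73% to 5.06% in the triple mutant. They rose from 0.0440% to 0.295% in the quadruple mutant and from 2.22% to 4.90% between the mutants. The p-values measure the spread between arrays, and the labels do not say how seedlings were divided among them. Alternatives are listed with their effects in the closing section.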

Additional observations from a re-analysis of the deposited data

How the results depend on the processing

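The number of arrays limits every value: the median half-width of the 95% intervals was 0.39 in the triple mutant against wild type, and 9 of the 16 mean signals lay under the lowest array median. Across 18 alternatives and left-out arrays, 794 of 849 refitted member differences kept their direction and their side of the threshold, 54 changed sign and 1, nad6, gained a call. Many of these refits could not change sign. The replicate block, a variance trend and a fit to the 6 arrays compared return the reported estimate. The filter at a mean of 5 also returns that estimate for the members it keeps. So does leaving out an array of the genotype outside the comparison. The 794 thus overstate how stable the directions are. With the replicate block 0 members were called in each comparison. Of all probe sets that fit called 5.06% in the triple mutant, 0.295% in the quadruple mutant and 4.90% between the mutants. The median shift of all probe sets was -0.12 and -0.08 from wild type after median centring. The filter at a mean of 5 left 11 members. Treating orf25 and orfB as open reading frames could not be run, since neither is a member.

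Leaving out 1 array at a time gave 0 to 1 member calls in the triple mutant and by the F-test, both 1 without wild-type replicate 1. It gave 0 to 6 and 0 to 3 plastid calls in the triple and quadruple mutant, and 0 to 1 nuclear calls between the mutants. Nuclear calls between the mutants were 3 of 71 with array weights, against 7.31% of all probe sets in that fit. They were 3 with the replicate block, against 4.90%, 0 with the filter, against 3.55%, and 0 without the arrays numbered 3, against 1.66%. The filter removes SDH1-2 for its low mean, so the gene was not tested there. In the triple mutant there were 2 nuclear calls with the block, against 5.06%. Median differences of all members from wild type ran from 0.12 to 0.31 in the triple mutant, highest without wild-type replicate 1, and from 0.04 (without wild-type replicate 2) to 0.27 in the quadruple mutant when 1 array was left out. Without the arrays numbered 3 they were 0.04 and 0.02. Over members with a mean of at least 7, which are nad4, ccmFC and ccmFN1 alone, they were 0.44 and 0.33. For the respiratory subunits, where nad4 is the 1 such subunit, the value was 0.44 in the triple mutant. The other members' median in the triple mutant was 0.32 over that range, where it rests on ccmFC and ccmFN1. It was 0.01 without the arrays numbered 3 and 0.06 to 0.25 with 1 array left out. In the quadruple mutant the other members' median was 0.23 with the filter at 5.

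Sign changes in the triple mutant against wild type were ccmFN2 (ccb203) at -0.0445 with array weights, -0.0521 with median centring, -0.0313 with nuclear centring and -0.106 without the arrays numbered 3, and, also without those, nad9 at -0.0587 and mttB (orfX) at -0.112. In the quadruple mutant against wild type they were nad5 at -0.0427 with median centring, -0.0272 with nuclear centring and -0.0209 with quantile normalization, ccmFN1 at 0.00620 with array weights and nad4 at -0.151 without the arrays numbered 3. Between the mutants, array weights turned ccmFN2 to 0.0163, ccmFC to 0.0149, cox1 to 0.143, nad4L to -0.00559 and nad5 to 0.126, median centring turned cox1 to 0.00389, and leaving out the arrays numbered 3 turned ccmFN2 to 0.0384, cox1 to 0.0301 and nad6 to 0.0537. The cause was not tested.

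With 1 array left out, ranges that crossed 0 in the triple mutant against wild type were -0.0656 to 0.129 for ccmFN2, -0.0208 to 0.327 for ccmFN1, -5.67e-05 to 0.295 for nad5, -0.143 to 0.00331 for nad7 and -0.0691 to 0.346 for mttB. In the quadruple mutant against wild type they were -0.0842 to 0.0404 for ccmFN2, -0.0160 to 0.237 for ccmB, -0.222 to 0.108 for ccmFN1, -0.171 to 0.0180 for nad1 and -0.0612 to 0.243 for nad5. Between the mutants they were -0.146 to 0.0256 for ccmFN2, -0.349 to 0.0795 for ccmFC, -0.170 to 0.191 for cox1, -0.121 to 0.0339 for matR, -0.187 to 0.0901 for nad2, -0.328 to 0.00565 for nad4, -0.0599 to 0.0779 for nad4L, -0.249 to 0.0864 for nad5, -0.0879 to 0.0265 for nad6 and -0.0853 to 0.218 for nad9.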
